A study of Mus musculus with 12 samples.

Results

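The zinc finger cluster of mouse chromosome 13 was followed through 4 groups of embryonic stem cell lines by RNA sequencing. Members were the rows of the deposited count table whose gene starts between 60 and 70 Mb of chromosome 13 in the GENCODE M21 annotation (GRCm38) and whose symbol is Zfp with a number, Rsl1, Rslcan with a number, or 2410141K09Rik. That rule took 32 of 43346 genes: 31 annotated as protein coding and 1, Zfp640, as a transcribed processed pseudogene. It left out 1 symbol in the window, Zfp85os, an antisense transcript. The members ran from position 62129886 to 67827002, and 25 of them started between 67 and 68 Mb; 25 lay on the minus strand and 7 on the plus strand.

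The groups held 3 libraries each. B6 is the inbred strain C57BL/6J and D2 is DBA/2J. B6-13D2, labelled B6.D2-(rs30079041-rs51756099)/Bakr, is a congenic line with a stretch of D2 chromosome 13 on the B6 background. D2-13B6, labelled D2.B6-(rs29224292-rs13469455)/Bakr in the sample labels, carries B6 chromosome 13 sequence on the D2 background, and the series text names another marker, rs51756099, for the end of its segment. Positions of these markers were not used here, so which members lie inside a segment was not read from the labels. Every group grew in serum medium with LIF, the MEK inhibitor PD0325901 and the GSK3 inhibitor CHIR99021. The protocol describes 1 cell line per strain, while the labels give B6 replicate 3 (B6 4-1) another line name than the other B6 libraries (B6 5-1). For D2, the titles name the line D2 2-9 and the cell line field D2 5-5. Strain and line cannot be told apart. The titles call the libraries technical replicates and the protocol calls them separate cultures, so p-values measure the spread between these libraries, which may be technical in part.

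KRAB zinc finger proteins, the class that this cluster mainly encodes, bind DNA through a row of C2H2 zinc fingers, each of which reads a few bases. Their KRAB domain recruits the co-repressor TRIM28, which brings the histone methyltransferase SETDB1 and HP1 proteins and so places repressive H3K9 methylation. In embryonic stem cells these proteins are known for silencing transposable elements, and the clusters that encode them differ between mouse strains. Rsl1 takes its name from regulator of sex-limitation, a locus that represses male-type liver genes, and the Rslcan genes were the candidates mapped beside it.

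Most members are paralogs built from the same repeat, and reads from paralogs can be hard to assign. In the GENCODE M21 transcripts, 31 members had an intact coding sequence, and it held 0 to 30 in-frame matches to the codons of a C2H2 finger (median 14). Of 21174 coding genes in the table, 2.99% had any match. The linker between fingers, searched as ACNGGNGANAANCC in frame on the coding strand, was found in 29 members and in 2.26% of coding genes. One repeat is shown for 2410141K09Rik, Zfp459 and Zfp874a, the members that differed most between lines with and without the segment, and for Zfp874b, the close relative of Zfp874a. Capitals mark the cysteine and histidine codons and the linker that follows them.

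2410141K09Rik: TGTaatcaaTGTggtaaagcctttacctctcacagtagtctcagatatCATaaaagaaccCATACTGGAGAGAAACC
Zfp459: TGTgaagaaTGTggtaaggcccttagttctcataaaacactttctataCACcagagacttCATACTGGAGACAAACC
Zfp874a: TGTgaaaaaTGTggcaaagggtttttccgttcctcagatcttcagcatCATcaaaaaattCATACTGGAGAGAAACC
Zfp874b: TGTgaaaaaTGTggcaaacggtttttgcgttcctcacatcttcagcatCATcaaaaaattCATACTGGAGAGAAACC

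In 2410141K09Rik, 14 finger matches stood 84 bases apart without a gap, and its coding length was 1395 bases. Zfp459 had 3 matches in 804 bases and Zfp874a had 9 in 1344. From their first finger on, Zfp874a and Zfp874b were 94.3% identical over 930 bases, with a longest identical run of 176 bases. That run exceeds the 150-base read length, so single reads can fit both genes. Across whole transcripts, 0.517% of the 150-base windows of Zfp874a occurred in another gene of the table, all of them in Zfp874b. No such window of 2410141K09Rik or Zfp459 occurred in any other gene of the table, yet the counts of 2410141K09Rik were fractional in 11 of 12 libraries. All windows came from transcripts of the reference assembly GRCm38, so D2 sequence was not searched. Over the 32 members, 14 had no shared window and 4 had more than 10% shared: Zfp708 (93.9%), Zfp456 (53.5%), Zfp58 (42.7%) and Rslcan18 (16.2%). Each of those 4 overlaps an annotated transcript with a Gm symbol that took part of these windows. Expected counts were whole (within 1e-06) in every library for 10 members, Zfp459, Zfp493, Zfp748 and Zfp367 among them, and fractional in at least 1 library for 22.

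RefSeq promoter sequence (GRCm38.p6) was matched by symbol for 27 members. The 250 bases upstream of the RefSeq start are shown for the members that followed the segment allele and had an entry, because their levels differed by segment, 2410141K09Rik in the opposite direction to the others. They lie at chr13:66441119-66441368 (minus strand) for 2410141K09Rik, chr13:67421419-67421668 (minus) for Zfp459, chr13:67451625-67451874 (minus) for Zfp874a, chr13:67683513-67683762 (minus) for Zfp738 and chr13:67813566-67813815 (plus) for Zfp273. RefSeq and GENCODE M21 starts can differ. The Zfp738 window lies inside the GENCODE range of that gene, and the Zfp273 window runs past its GENCODE start at 67813740. Capitals mark matches on either strand to the ZNF143-type core AANTGTAGT, to the cyclic AMP response element TGACGTCA and to the ETS core CCGGAA, which do not overlap in these windows.

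2410141K09Rik: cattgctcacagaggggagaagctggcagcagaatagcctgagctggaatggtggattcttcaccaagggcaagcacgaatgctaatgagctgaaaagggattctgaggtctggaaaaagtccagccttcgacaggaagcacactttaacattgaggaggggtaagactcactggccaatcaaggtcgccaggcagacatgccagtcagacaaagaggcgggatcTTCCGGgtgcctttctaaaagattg
Zfp459: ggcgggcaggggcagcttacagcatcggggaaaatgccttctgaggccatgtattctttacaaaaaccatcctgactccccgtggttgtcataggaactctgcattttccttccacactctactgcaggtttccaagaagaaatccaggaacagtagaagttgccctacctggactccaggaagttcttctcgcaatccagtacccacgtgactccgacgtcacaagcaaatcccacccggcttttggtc
Zfp874a: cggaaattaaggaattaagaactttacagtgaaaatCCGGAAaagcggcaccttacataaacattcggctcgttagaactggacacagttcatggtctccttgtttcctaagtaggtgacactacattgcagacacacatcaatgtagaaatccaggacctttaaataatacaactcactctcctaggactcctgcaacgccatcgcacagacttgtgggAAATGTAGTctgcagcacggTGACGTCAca
Zfp738: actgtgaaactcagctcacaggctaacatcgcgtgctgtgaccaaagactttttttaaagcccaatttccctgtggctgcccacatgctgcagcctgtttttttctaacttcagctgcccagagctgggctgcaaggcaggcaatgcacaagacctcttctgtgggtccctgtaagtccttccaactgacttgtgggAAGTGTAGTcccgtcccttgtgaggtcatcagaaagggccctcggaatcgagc
Zfp273: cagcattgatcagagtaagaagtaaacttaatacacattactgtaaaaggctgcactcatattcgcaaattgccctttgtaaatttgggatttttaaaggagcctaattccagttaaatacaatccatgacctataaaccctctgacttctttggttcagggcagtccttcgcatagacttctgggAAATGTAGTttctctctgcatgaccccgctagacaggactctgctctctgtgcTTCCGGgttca

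The ZNF143-type core stood in the upstream window of 15 of 27 members, against 1.42% of 32851 windows of that length in the RefSeq table. Among the members shown, Zfp874a, Zfp738 and Zfp273 held it. The response element was found in 6 of 27 members (1.55% of all windows) and the ETS core in 10 (12%). These motifs were chosen after the windows had been read, and a match is a description of letters, not evidence of binding.

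Library totals ranged from 22184196 to 36411799 expected counts. All 10 embryonic stem cell markers of the list used had a mean above 1 CPM, where CPM is read counts scaled to a common TMM library size. Their sum was 5235 to 5590 CPM in B6, 3647 to 3726 in D2, 6117 to 6399 in B6-13D2 and 4487 to 4545 in D2-13B6. The labels do not mention feeder cells, but all 8 fibroblast markers of the list (Col1a1, Col1a2, Col3a1, Thy1, Postn, Lum, Dcn and Pdgfrb) also had means above 1 CPM. Their sum was 9383 to 10191 CPM in B6, 14177 to 16967 in D2, 3095 to 3182 in B6-13D2 and 7731 to 8055 in D2-13B6. Sums of primitive endoderm and trophoblast markers stayed between 15.1 and 86.6 CPM, with Foxa2, Sox17, Sox7, Elf5 and Hand1 under 1 CPM. Markers of the 2-cell-like state summed to 158 to 192 CPM in D2 and to 27.7 to 43.6 CPM in the other groups, with Duxf3, Tcstv1 and Zfp352 under 1 CPM. In bulk RNA, fewer cells of a type and less RNA per cell cannot be told apart.

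Taken per length, 2410141K09Rik had the highest level of the cluster, with a mean over the 12 libraries of 19.9 CPM per kilobase of annotated exon. It was followed by Zfp367 (8.15), a zinc finger factor outside the KRAB class, Zfp459 (6.21) and Zfp808 (5.89). The lowest were Zfp457 (0.0457), Rslcan18 (0.0635) and Zfp458 (0.131). In B6 the order at the top differed: Zfp367 had 9.74, Zfp459 9.52 and 2410141K09Rik 9.06 CPM per kilobase. Zfp457 had 0 to 16 counts in a library and did not pass the filter on low counts, which leaves 31 members tested.

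Summed over all 32 members, the cluster had 335 CPM ± 9.54 (SD, n = 3) in B6, 310 ± 7.91 in D2-13B6, 317 ± 23.7 in D2 and 396 ± 8.44 in B6-13D2. The share that came from 2410141K09Rik split the groups by segment. It was 9.01% ± 0.267 in B6 and 10.6% ± 0.478 in D2-13B6, but 27.8% ± 0.859 in D2 and 28.5% ± 0.334 in B6-13D2. Without that gene the sums were 304 CPM in B6, 277 in D2-13B6, 229 in D2 and 283 in B6-13D2, so D2 was the lowest group. Of the 31 tested members, D2 had the lowest mean for 16 and the highest for 0, and this order was not counted over all tested genes. In D2 against B6, 23 of 31 members and 242 of 350 Zfp genes elsewhere had a log2 fold change below 0. Of all 17148 tested genes, 8417 did. D2 also had the highest fibroblast and the lowest stem cell marker sums, whose part was not tested.

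**Figure D1:**
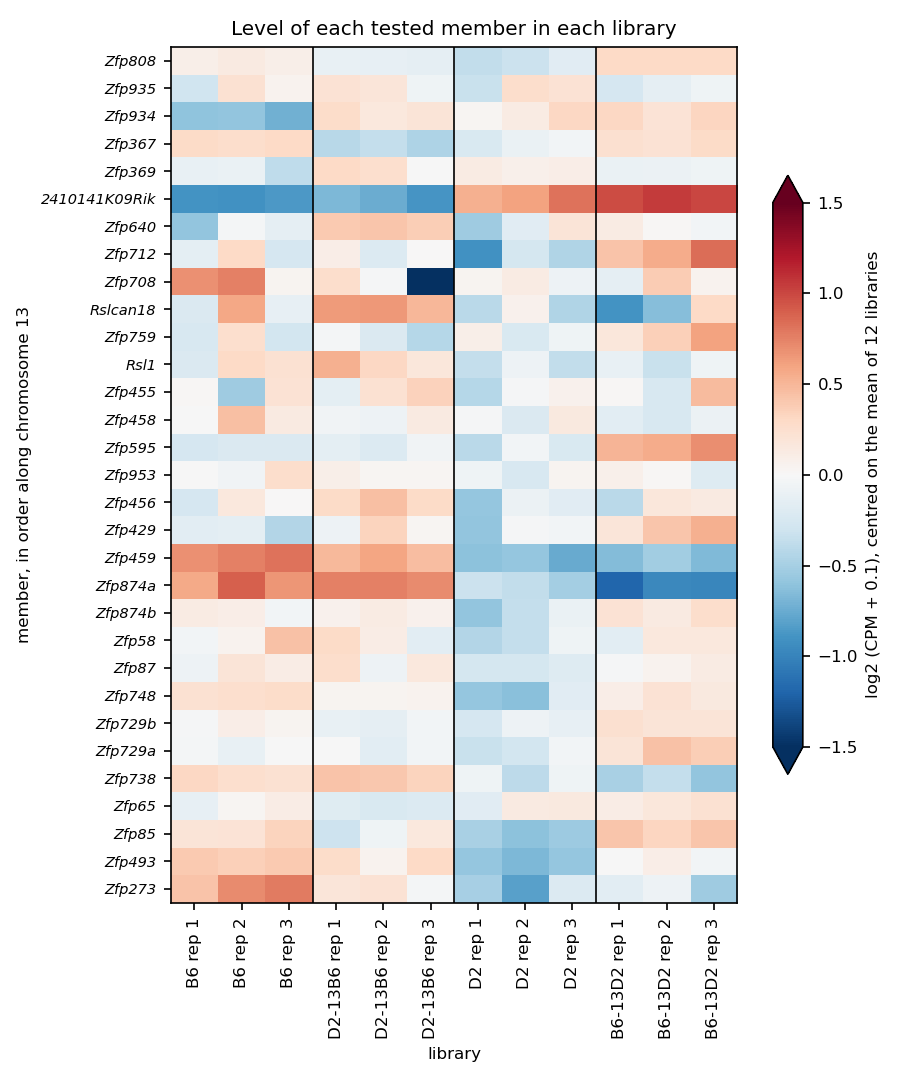
Heat map of log2 (CPM + 0.1) for the 31 tested members in 12 libraries, each row centred on its mean; rows follow the order along chromosome 13 and colours stop at 1.5 in either direction. 2410141K09Rik is low in the 6 libraries with the B6 segment and high in the 6 with the D2 segment, while Zfp459 and Zfp874a show the reverse.

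The first question was which members followed the segment, that is, differed in the same direction between lines with the D2 and the B6 segment on both backgrounds. Of 31 tested members, 6 did: 2410141K09Rik was higher with the D2 segment, and Zfp459, Zfp874a, Zfp738, Zfp493 and Zfp273 were lower. By the same rule, 7.33% of all 17148 tested genes followed it, 3.02% with higher and 4.31% with lower levels under the D2 segment. A member was called when its edgeR adjusted p was at most 0.05, and it followed the segment when it was called in B6-13D2 over B6 and, with the opposite sign, in D2-13B6 over D2. When a log2 fold change of at least 1 was also required on both backgrounds, 2410141K09Rik, Zfp459 and Zfp874a remained, against 0.554% of all tested genes. These members were known from earlier results on these libraries, so the counts describe them and do not test the cluster.

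2410141K09Rik (chr13:66418114-66441118, minus strand), a zinc finger gene known by its clone name, was measured at 29.9, 29.7 and 30.8 CPM in the B6 libraries and at 34.9, 33.3 and 30.3 in D2-13B6. It reached 81.2, 85.0 and 98.5 CPM in D2 and 110, 116 and 112 in B6-13D2. The libraries with a D2 segment did not overlap those with a B6 segment. It was 3.74-fold higher in B6-13D2 than in B6 (1.90 on the log2 scale, SE 0.064, edgeR adjusted p 3.75e-14), and 2.67-fold lower in D2-13B6 than in D2 (-1.42, SE 0.062, adjusted p 2.98e-12). B6-13D2 exceeded D2 as well, by 0.36 (SE 0.057), while D2-13B6 was not called against B6. The fibroblast marker sum was highest in D2 and lowest in B6-13D2, the groups in which this gene was high, and its part was not tested.

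Zfp459 (chr13:67405709-67421418), whose counts were whole in every library, had 33.4, 34.9 and 36.4 CPM in B6 and 29.0, 31.1 and 28.6 in D2-13B6. It had 13.5, 13.8 and 12.2 CPM in D2 and 13.1, 14.4 and 13.0 in B6-13D2. Both groups with the D2 segment lay in a common range, and every library of theirs was below every library with the B6 segment. B6-13D2 differed from B6 by a log2 fold change of -1.37 (SE 0.063), and D2-13B6 differed from D2 by 1.16 (SE 0.063). The D2-13B6 level stayed slightly under B6 (-0.24, SE 0.057, edgeR adjusted p 0.00159), and B6-13D2 against D2 was not called.

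Its neighbour Zfp874a (chr13:67424549-67451624) had 16.9, 21.2 and 18 CPM in B6 and 19.2, 19.3 and 18.6 in D2-13B6. In D2 it had 9.08, 8.76 and 7.97 CPM, and in B6-13D2 4.92, 5.77 and 5.70. All 6 libraries with the D2 segment were below the other 6, and B6-13D2 was the lowest group. It was 3.43-fold lower in B6-13D2 than in B6 (log2 fold change -1.78, SE 0.093) and 2.21-fold higher in D2-13B6 than in D2 (1.14, SE 0.084).

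Zfp874b, its 94.3% identical relative, did not follow the segment. It had 6.55 CPM ± 0.408 (SD, n = 3) in B6, 6.67 ± 0.142 in D2-13B6, 4.96 ± 0.877 in D2 and 7.27 ± 0.359 in B6-13D2. In B6-13D2 against B6 its log2 fold change was 0.15 and was not called. Counts of both genes were fractional in all 12 libraries, and which genes shared those reads was not tested.

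Zfp738 (chr13:67658685-67687071) had 12.7, 12.2 and 12 CPM in B6 and 13.8, 13.6 and 12.9 in D2-13B6. It had 9.79, 7.81 and 9.83 CPM in D2 and 7.30, 7.95 and 6.79 in B6-13D2. Every library with the D2 segment was again below every library with the B6 segment. Its log2 fold changes were -0.74 (SE 0.092) for B6-13D2 over B6 and 0.57 (SE 0.086) for D2-13B6 over D2, and its counts were fractional in all libraries.

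Zfp493 (chr13:67779693-67792512), with whole counts, had 7.60, 7.39 and 7.63 CPM in B6 and 6.99, 5.98 and 7.11 in D2-13B6. It had 3.83, 3.59 and 3.82 CPM in D2 but 5.75, 6.21 and 5.62 in B6-13D2, whose highest library overlapped the lowest of D2-13B6. B6-13D2 was below B6 by less (log2 fold change -0.36, SE 0.096) than D2-13B6 was above D2 (0.84, SE 0.101). That difference was called (0.48, SE 0.139, edgeR adjusted p 0.00619).

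Zfp273 (chr13:67813740-67827002), the last member of the row, had 4.35, 5.33 and 5.57 CPM in B6 and 3.67, 3.74 and 3.16 in D2-13B6. It had 2.25, 1.78 and 2.78 CPM in D2 and 2.87, 3.05 and 2.19 in B6-13D2. The lowest D2-13B6 library was close to the highest library with the D2 segment, without overlap. The log2 fold changes were -0.90 (SE 0.169) and 0.67 (SE 0.176), and D2-13B6 remained below B6 (-0.53, SE 0.161).

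**Figure D2:**
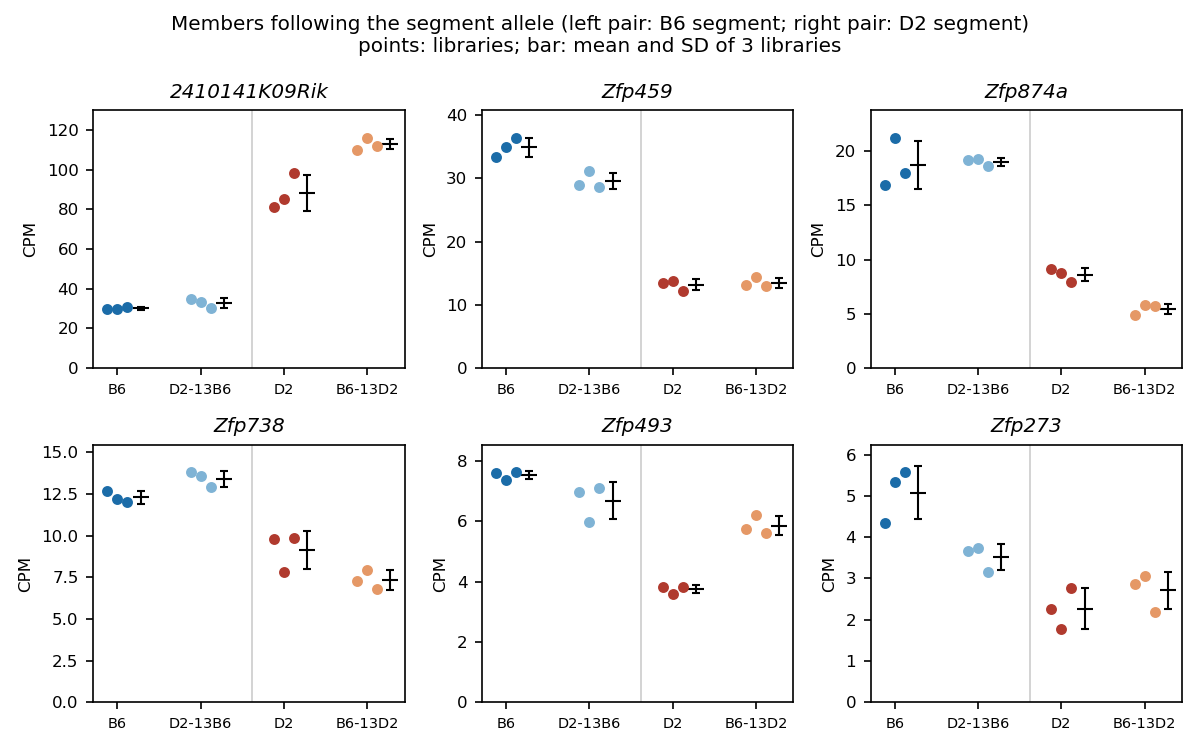
CPM in each library (points) with the mean and SD of 3 libraries (bars) for the 6 members that followed the segment allele, arranged so that the groups with the B6 segment stand on the left and those with the D2 segment on the right of each panel. 2410141K09Rik is at 29.7 to 34.9 CPM on the left and 81.2 to 116 on the right; the other 5 are lower on the right, with overlap in Zfp493 alone.

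Between the parental strains, more of the called members were lower in D2 than higher. Of 31 tested members, 16 were called in D2 against B6 (60% of all tested genes were), 3 higher (29.8%) and 13 lower (30.3%). The median log2 fold change of the members was -0.33, against 0.01 over all tested genes. The 3 higher ones were 2410141K09Rik (1.55, SE 0.065), Zfp934 (0.82, SE 0.115) and Zfp369 (0.29, SE 0.096). The lowest were Zfp459 (-1.40, SE 0.064), Zfp273 (-1.19, SE 0.176), Zfp874a (-1.12, SE 0.087) and Zfp493 (-1.01, SE 0.103). Along with 2410141K09Rik, those 4 were the members past a log2 fold change of 1 in either direction, 5 of 31, against 11.3% of all tested genes. The call of Zfp369 was lost without B6 replicate 3, the library with the other line name, when its log2 fold change was 0.20. Against B6, D2 also had higher fibroblast marker sums (14177 to 16967 against 9383 to 10191 CPM) and lower stem cell marker sums (3647 to 3726 against 5235 to 5590 CPM), and their part was not tested.

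Between B6-13D2 and B6, the called members lay on both sides. Against B6, B6-13D2 had 14 called members (58.3% of all tested genes), 9 higher (25.4%) and 5 lower (32.9%), and the median over the 31 was 0.01 against -0.04 over all genes. Past a log2 fold change of 1 were 3 of the 31, against 14.5% of all tested genes. The 5 lower members were those that followed the segment downwards. Besides 2410141K09Rik, the higher ones were led by Zfp934 (0.94, SE 0.113), Zfp595 (0.83, SE 0.109), Zfp712 (0.65, SE 0.204) and Zfp429 (0.64, SE 0.172). The remaining 4 were Zfp759, Zfp729a, Zfp808 and Zfp729b, with log2 fold changes of 0.17 to 0.46. Fibroblast markers were lower and stem cell markers higher in B6-13D2 than in B6, by the sums above, and their part in these changes was not tested.

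Zfp595 was high in that group alone. It had 4.39, 4.49 and 4.50 CPM in B6, 4.74, 4.54 and 5.07 in D2-13B6, 3.96, 5.12 and 4.46 in D2 and 7.51, 7.75 and 8.61 in B6-13D2. The B6-13D2 libraries lay above all the others, and D2 overlapped both B6 and D2-13B6. Of its 150-base windows, 0.920% also occurred in the overlapping transcript Gm28044. Zfp712 (whole counts) had its highest mean there too, 3.06 CPM ± 0.475 (SD, n = 3), against 1.94 ± 0.433 in B6, 1.34 ± 0.313 in D2 and 1.92 ± 0.216 in D2-13B6.

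Most of the called members were higher in D2-13B6 than in D2. Against D2, D2-13B6 had 18 called members (57.3% of all tested genes), 15 higher (27.6%) and 3 lower (29.7%), with a median of 0.30 over the 31 and 0.00 over all genes. Past a log2 fold change of 1 were 3 of the 31, against 8.96% of all tested genes. The 3 lower were 2410141K09Rik, Zfp367 (-0.29, SE 0.049) and Zfp65 (-0.25, SE 0.080). Zfp459 and Zfp874a led the higher ones, followed by Rslcan18 (0.96, SE 0.380), Zfp493, Zfp273, Zfp456 (0.62, SE 0.179) and Rsl1 (0.62, SE 0.177). Here too the fibroblast marker sum was lower in the congenic line. The stem cell marker sum was higher there (4487 to 4545 against 3647 to 3726 CPM). The 2-cell-like marker sum was lower (27.7 to 31.3 against 158 to 192 CPM). The part of these markers was not tested. Without D2 replicate 2, 15 members were called, 13 higher and 2 lower. Zfp65 (-0.19) and Zfp808 (0.14) were among those no longer called.

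A set of 11 members was lower in D2 than in B6 and higher in D2-13B6 than in D2, a rule that 14.6% of all tested genes met. Both comparisons share the D2 libraries, so a low level in those alone meets it. Of the 11, 5 were not called in B6-13D2 against B6: Zfp874b, Zfp58, Zfp87, Zfp748 and Zfp85 (5.19% of all tested genes were of that kind). Zfp748 (whole counts, chr13:67538641-67553830) had 12.9, 13.1 and 13.3 CPM in B6, 11.3, 11.3 and 11.4 in D2-13B6, 7.33, 7.06 and 9.70 in D2 and 11.8, 12.8 and 12.2 in B6-13D2. Its D2 libraries were below the other 9, whereas for Zfp58 D2 overlapped both congenic lines. Zfp85 had 2.97 CPM ± 0.173 (SD, n = 3) in B6, 2.39 ± 0.394 in D2-13B6, 1.67 ± 0.083 in D2 and 3.29 ± 0.118 in B6-13D2, and its transcripts share windows with the antisense Zfp85os. Fibroblast markers had their highest sums in D2 (14177 to 16967 CPM) and stem cell markers their lowest (3647 to 3726), and the part of either in these low levels was not tested.

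**Figure D3:**
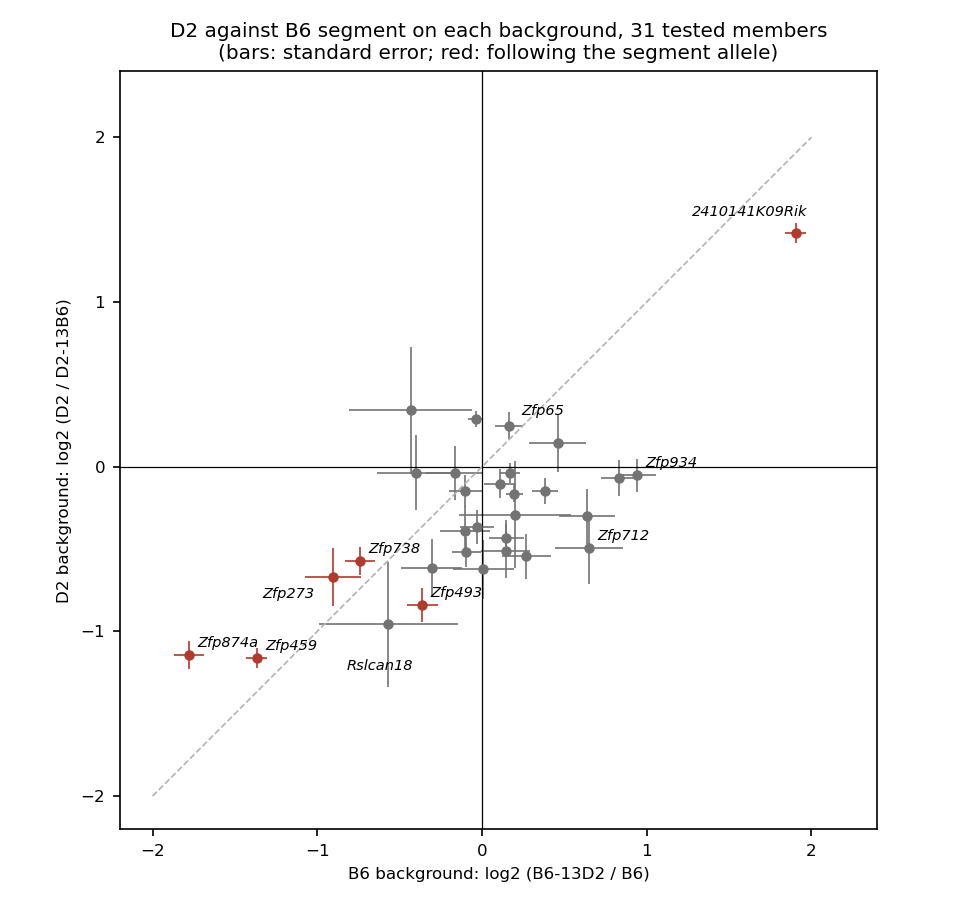
Log2 fold change between lines with the D2 and the B6 segment on the B6 background (x axis, B6-13D2 over B6) against that on the D2 background (y axis, D2 over D2-13B6) for 31 members, with standard errors; the dashed line marks equal values and red points follow the segment allele. 2410141K09Rik stands alone at the upper right (1.90 and 1.42), and Zfp459 and Zfp874a at the lower left.

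The 5 members at 62 to 66 Mb, Zfp808, Zfp935, Zfp934, Zfp367 and Zfp369, included no gene that followed the segment. Zfp934 (chr13:62479827-62571199) was low in B6 alone, with 3.12, 3.15 and 2.87 CPM, against 4.91, 5.26 and 6.01 in D2, 5.99, 5.57 and 6.04 in B6-13D2 and 5.84, 5.37 and 5.51 in D2-13B6. The last 3 groups overlapped, and B6 lay below all of them. D2-13B6 differed from B6 (0.87, SE 0.112) and not detectably from D2 (0.05, not called). The annotated range of Zfp934 overlaps that of Zfp935 on the same strand, and 1.35% of its windows occur in another gene.

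Zfp367 (whole counts) separated by background instead. It had 53.9, 52.8 and 54.3 CPM in B6 and 51.9, 51.3 and 53.7 in B6-13D2, which overlapped, and 37.7, 41.1 and 42.9 in D2 and 33.1, 34.5 and 31.9 in D2-13B6. D2-13B6 was lower than B6 by a log2 fold change of -0.69 (SE 0.048). The stem cell marker sums also separated by background. They were 5235 to 5590 CPM in B6 and 6117 to 6399 in B6-13D2, against 3647 to 3726 in D2 and 4487 to 4545 in D2-13B6. Their part in the levels of Zfp367 was not tested. Zfp808 had 29.5 CPM ± 0.439 (SD, n = 3) in B6, 25.3 ± 0.182 in D2-13B6, 22.6 ± 1.68 in D2 and 33.9 ± 0.076 in B6-13D2.

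Rsl1 and Rslcan18 were expressed at low levels. Rsl1 had 1.93, 2.81 and 2.66 CPM in B6, 3.32, 2.82 and 2.55 in D2-13B6, 1.75, 2.14 and 1.73 in D2 and 2.08, 1.78 and 2.15 in B6-13D2. The D2-13B6 libraries exceeded those of D2 and B6-13D2 and overlapped B6. It was called in D2-13B6 against D2 (0.62, SE 0.177, edgeR adjusted p 0.00646) and in no other comparison. Rslcan18 had 0.384 CPM ± 0.101 in D2 and 0.771 ± 0.049 in D2-13B6, with at most 29.5 expected counts in a library. Its call in that comparison was lost with DESeq2 and without any of 5 libraries: D2 replicates 1 and 3 or any of the D2-13B6 libraries.

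Of the liver genes listed as targets of the Rsl locus, Cyp2d9 and Mup1 had 0 counts in every library, and Mup3 and Mup20 at most 2. C4a, which encodes the sex-limited protein, had 2.06 CPM in B6, 3.32 in D2-13B6, 2.42 in D2 and 2.00 in B6-13D2. C4b had 0.699 to 1.65 CPM.

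**Figure D4:**
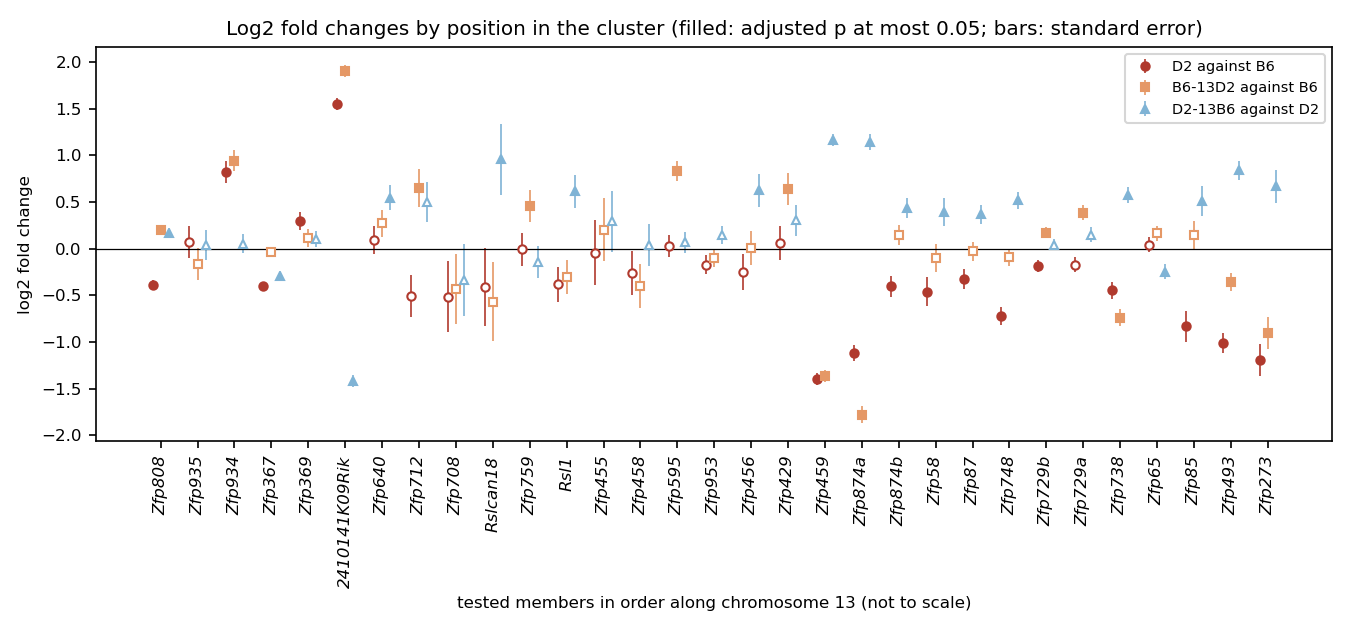
Log2 fold changes with standard errors for the 31 tested members, in order along chromosome 13, in D2 against B6 (circles), B6-13D2 against B6 (squares) and D2-13B6 against D2 (triangles); filled symbols have an edgeR adjusted p of at most 0.05. From Zfp712 to Zfp273 most D2 values are below 0 and most D2-13B6 values above it, while B6-13D2 values lie on both sides. None of the D2 symbols from Zfp712 to Zfp429 is filled.

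Next, cell lines that share a segment but not a background were set against each other. B6-13D2 against D2, both with the D2 segment, called 17 members (74.6% of all tested genes), 15 higher (36.7%) and 2 lower (38.0%). The 2 lower were Zfp874a (-0.66, SE 0.101) and Zfp738 (-0.29, SE 0.095), and Zfp712 was the furthest higher (1.16, SE 0.210) and the only member past a log2 fold change of 1 (28.1% of all tested genes were). These groups were the furthest apart in fibroblast markers (3095 to 3182 CPM in B6-13D2, 14177 to 16967 in D2) and in stem cell markers (6117 to 6399 and 3647 to 3726), whose part was not tested. D2-13B6 against B6, both with the B6 segment, called 10 members (59.0%), 3 higher (24.5%) and 7 lower (34.6%). Its fibroblast marker sums (7731 to 8055 against 9383 to 10191 CPM) and stem cell marker sums (4487 to 4545 against 5235 to 5590 CPM) were lower in D2-13B6, and their part was not tested. No member passed a log2 fold change of 1 there (11.6% of all tested genes did), and 13 of 31 had an unadjusted p under 0.05, against 10782 of 17148 tested genes. The majority changed with the scaling: with RLE size factors 6 were higher and 4 lower, and with DESeq2 4 and 4. Single libraries mattered too: without B6 replicate 2, or without D2-13B6 replicate 2, 3 were higher and 4 lower.

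The difference between lines with the D2 and the B6 segment, taken on the B6 background minus the D2 background, was called for 16 members (64.5% of all tested genes), 14 above 0 (31.1%) and 2 below (33.4%). This contrast equals both congenic lines minus both parental strains, so anything the congenic libraries share is part of it. The fibroblast marker sum was lower in each congenic line than in its parental strain. The 2 members below 0 were Zfp874a (-0.64, SE 0.128) and Zfp367 (-0.33, SE 0.068). Zfp712 had the highest value (1.15, SE 0.298), the only one past 1 (25.6% of all tested genes were), and Zfp934 followed (1.00, SE 0.152).

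Other genes were counted in the same way for comparison, without a test between lists. Of 53 tested genes in the window that are not members, 9 followed the segment (17%). With a log2 fold change of at least 1 on both backgrounds, 5 did so (9.43%). The members had similar shares, 19.4% and 9.68%, against 7.33% and 0.554% of all tested genes. Of 350 tested genes with a Zfp symbol elsewhere in the genome, 29 followed the segment (8.29%), 27 of them lower with the D2 segment. Among these, 1 had a log2 fold change of at least 1 on both backgrounds (0.286%). The zinc finger genes elsewhere also had a median below 0 in D2 against B6 (-0.16) and above 0 in D2-13B6 against D2 (0.17), as the members did (-0.33 and 0.30).

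Partners of KRAB zinc finger proteins and related chromatin genes were a list of 19, all tested: Trim28, Setdb1, Atf7ip, Cbx1, Cbx3, Cbx5, Hdac1, Hdac2, Chd3, Chd4, Smarcad1, Morc3, Dnmt1, Uhrf1, Zfp57, Mphosph8, Fam208a, Pphln1 and Morc2a. Zfp57, itself a KRAB zinc finger gene, had the lowest value of the list in D2 against B6 (-0.90). D2 against B6 called 15 of them (60% of all tested genes), 2 higher (29.8%) and 13 lower (30.3%), with a list median of -0.34. B6-13D2 against B6 called 12 (58.3%), 8 higher (25.4%) and 4 lower (32.9%), with a median of 0.02. D2-13B6 against D2 called 16 (57.3%), 12 higher (27.6%) and 4 lower (29.7%), with a median of 0.19. The first and the last of these comparisons share the D2 libraries, in which the fibroblast marker sum was highest, and its part was not tested. Chd3, a subunit of the NuRD remodelling complex, had 105 CPM in B6, 70.1 in D2-13B6, 119 in D2 and 50.5 in B6-13D2, so it was lower in both congenic lines (-1.06, SE 0.053, and -0.76, SE 0.050). The fibroblast marker sum was likewise lower in each congenic line than in its parental strain, and its part was not tested. Cbx1, which encodes HP1 beta, rose in D2-13B6 against D2 (0.72, SE 0.035).

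The genes whose log2 CPM ran most alike to 2410141K09Rik over the 12 libraries were Hydin on chromosome 8 (r = 0.982), which encodes a protein of motile cilia, and Gm17514 (0.979) and Gm10772 (0.974) on chromosome 13. The last pair lie at 66183079 to 66203636 and 66227319 to 66227573, at lower coordinates than 2410141K09Rik and within the same window. Hydin had 3.83 CPM in B6, 3.74 in D2-13B6, 9.84 in D2 and 11.1 in B6-13D2. In the same order, Gm17514 had 0.115, 0.181, 1 and 2.2 CPM. Gm10772 had 0.229, 0.194, 0.719 and 0.893 CPM, so both rest on few reads. Over 4 groups of 3 libraries, the points within a group share a cell line, so r is given as a description.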

How the data were processed

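RNA from mouse embryonic stem cells was sequenced in 12 libraries, 3 in each of 4 groups, which were taken from the sample titles. The authors deposited expected counts, which are estimates and can be fractional, for each Ensembl gene ID in each library; the title of the deposited table names EMASE. Per the submitters' processing notes, Bowtie 1.0.0, edgeR 3.34.1 and the build mm10 were used, with no role stated; strain-specific alignment, annotation release, strand use and filters are not given in the sources used here. Symbols and positions come from GENCODE M21 (GRCm38, the assembly of mm10), which held 42462 of 43346 IDs; 0.361% of counts fell in the others. All columns mapped to a library (0 left out).

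Counts were rounded and fitted in R 4.3.3 with edgeR 4.0.16: filterByExpr with a minimum count of 10, TMM, a quasi-likelihood fit with 4 group means over 12 libraries, and Benjamini-Hochberg adjustment over all 17148 tested genes at 0.05. Each SE was derived from the log2 fold change and its F statistic. The fit was tested on data simulated for D2 against B6. Alternatives were DESeq2 1.42.0, limma 3.58.1 (voom, unrounded counts), RLE scaling, dropping the low-count filter, keeping genes with mean CPM of 1 or more, calling only log2 fold changes of 1 or more, a replicate block, fits restricted to the groups compared, and omission of single libraries.

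The members, lists and tests were chosen with earlier results of these data known. Genes named were, by rule, members following the segment with a log2 fold change of at least 1 on either background, the 3 highest and lowest called members, with an average log2 CPM of 1 or more, in D2 against B6 and in each congenic line against its background strain, Rsl1, Rslcan18, 2410141K09Rik the 5 members with the highest mean CPM, and any tested member at 3 counts or fewer throughout a group. Other members, such as Zfp738, Zfp712, Zfp748, Zfp85 and Zfp874b, were named after their values were seen. Shared windows were exact 150-base matches, on either strand, between GENCODE M21 transcripts of genes in the table. Same-numbered libraries of different groups did not deviate together (mean correlation -0.011 over 18 pairs), so no shared effect of the numbers was detected. Whether same-numbered cultures were handled together is not known from this.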

Additional observations from a re-analysis of the deposited data

Results flagged for a closer look

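Among the 14 members named by rule, 8 differed between backgrounds in the difference between lines with the D2 and the B6 segment (edgeR interaction contrast, adjusted p at most 0.05), against 64.5% of all tested genes, so the share among these members is no higher than the general one. On the log2 scale the difference on the B6 background exceeded that on the D2 background by 1.00 for Zfp934, 0.90 for Zfp595, 0.53 for Zfp729a, 0.49 for 2410141K09Rik, 0.48 for Zfp493 and 0.36 for Zfp808. It was below it for Zfp874a (-0.64) and Zfp367 (-0.33). For 2410141K09Rik, Zfp874a and Zfp493 the direction was the same on both backgrounds, and the sizes differed. These values also hold whatever the congenic libraries share, since the contrast equals congenic lines minus parental strains. The fibroblast marker sum, which was lower in both congenic lines, moved with them, and its part was not tested.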

How the results depend on the processing

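The same 6 members followed the segment under DESeq2, limma-voom, RLE scaling, no low-count filter, a minimum mean CPM of 1, the replicate block and each left-out library, with 6 or 7 members in each case; the seventh was Zfp65 or, without B6-13D2 replicate 3, Rslcan18. A log2 fold change of at least 1 left 5 members for D2 over B6, 3 for B6-13D2 over B6, 3 for D2-13B6 over D2, 1 in B6-13D2 against D2, 0 in D2-13B6 against B6, 1 for the difference between backgrounds and 3 following the segment. With the replicate number as a block, the counts of called members were 16, 14, 18, 16, 10 and 17, and 6 followed the segment. No count moved by over 1.5 times, and no shared effect of the numbers was detected. Leaving out single libraries gave 14 to 17 for D2 over B6, 12 to 15 for B6-13D2 over B6, 15 to 19 for D2-13B6 over D2, 14 to 19 for B6-13D2 over D2, 7 to 11 for D2-13B6 over B6 and 14 to 17 for the difference between backgrounds. Of 50 called fold changes of named members, 45 kept call and direction under every alternative fit in which they were tested, and none changed sign. The other 5 were those of Zfp808, Zfp369, Rslcan18 and Zfp65 (2 comparisons). The rule of a log2 fold change of at least 1 was not part of that count. The call of Zfp65 in D2-13B6 against B6 was lost with DESeq2 and RLE size factors (-0.15 in both), with only the groups compared (-0.14), and without B6 replicate 2 or 3 or any D2-13B6 library (-0.22 to -0.16). The median log2 fold change of all genes moved by less than 0.1 between scalings. Members under about 1 CPM, such as Rslcan18 and Zfp455, rest on few reads.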
